A study of Mus musculus with 38 samples.

Results

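The regions described are 8186 H3K4me1 domains that cultured epidermal stem cells (EpdSCs) gained with 2 mutants of SOX9 but not with WT SOX9. They were chosen by the calls themselves. A domain of the ΔTA-SOX9 list was taken when it shared no base with any domain of the WT line, either without or with doxycycline (DOX), and shared at least 1 bp with a domain of the ΔHMG-SOX9 list. Of the 123338 ΔTA domains, 6.64% met this rule. Calling with ΔTA and ΔHMG, absence with WT, and the fold enrichment in the 2 mutant lists belong to this choice and are given below as a description.

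Mouse *Krt14-rtTA* EpdSCs were transduced with lentiviruses carrying MYC-tagged SOX9 under a TRE promoter, so that the Krt14-driven rtTA switches the transgene on when DOX is added. Each version, WT, ΔTA (lacking the transactivation domain) or ΔHMG (lacking the DNA-binding HMG box), was a separate population selected with puromycin. H3K4me1 was profiled by MINT-ChIP, which barcodes the chromatin of several samples before it is pooled and precipitated. The 2 culture libraries, from a high and a low nuclease digest, carried every condition, and 4 pooled lists were analysed: the WT population before induction, and each of the 3 populations after DOX was added. The 2 mutant populations without DOX were not analysed here. A difference between the populations that preceded DOX and a response to the mutant protein cannot be told apart. Each condition has 1 list, so that no replicate spread exists and no test was made. Intervals on shares are exact 95% binomial intervals, which cover counting error only.

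H3K4me1 is placed on nucleosomes at enhancers by MLL3 and MLL4, often before an enhancer becomes active, whereas H3K27ac accompanies activity. SOX9 binds DNA through its HMG box and recruits partners through its transactivation domain. In skin it is normally found in the hair follicle, including its stem cells, and not in EpdSCs. AP1, made of FOS and JUN family proteins, binds TGACTCA or its complement TGAGTCA and occupies many enhancers of epidermal keratinocytes, above all in culture and in wounds.

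Sequences are shown for the regions that bring the main features together, as RefSeq has them on the plus strand of GRCm38. The first 4 are among the regions of highest fold that hold an AP1 motif in their central 300 bp and also carried H3K4me1 in skin before induction. Capitals mark the AP1 motif, and each region is called by the nearest protein coding gene. Here and below, near a gene means only that, and the gene's start can lie far away.
Wdpcp, chr11:21713415-21713714: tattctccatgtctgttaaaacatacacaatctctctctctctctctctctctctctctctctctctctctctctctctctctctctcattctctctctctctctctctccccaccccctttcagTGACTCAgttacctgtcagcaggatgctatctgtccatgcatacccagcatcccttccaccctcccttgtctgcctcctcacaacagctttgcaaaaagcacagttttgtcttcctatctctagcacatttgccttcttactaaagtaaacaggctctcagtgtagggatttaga
Ccdc105, chr10:78756614-78756913: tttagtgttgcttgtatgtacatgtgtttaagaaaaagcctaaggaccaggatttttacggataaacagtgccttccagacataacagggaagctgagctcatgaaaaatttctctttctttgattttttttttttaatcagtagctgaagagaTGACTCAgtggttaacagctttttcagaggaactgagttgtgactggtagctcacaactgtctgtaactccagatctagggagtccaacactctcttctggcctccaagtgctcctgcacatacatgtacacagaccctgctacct
Shc3, chr13:51526415-51526714: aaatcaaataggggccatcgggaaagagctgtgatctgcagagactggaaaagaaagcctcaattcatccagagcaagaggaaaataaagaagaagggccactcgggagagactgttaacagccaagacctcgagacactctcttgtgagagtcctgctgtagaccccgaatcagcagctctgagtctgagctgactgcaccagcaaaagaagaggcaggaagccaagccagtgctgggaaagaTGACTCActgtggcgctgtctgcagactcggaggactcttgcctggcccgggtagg
Vangl2, chr1:172038306-172038605: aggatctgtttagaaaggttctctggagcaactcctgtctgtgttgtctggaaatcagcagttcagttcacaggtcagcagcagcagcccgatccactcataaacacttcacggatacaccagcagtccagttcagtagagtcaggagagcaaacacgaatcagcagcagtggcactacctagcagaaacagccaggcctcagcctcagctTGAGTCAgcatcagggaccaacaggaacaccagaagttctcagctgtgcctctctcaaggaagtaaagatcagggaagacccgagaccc
Each of the 4 windows held 1 AP1 motif, 3 as TGACTCA and 1, near Vangl2, as TGAGTCA on the plus strand. The share of bases soft-masked as repeats was 88.3% in the window near Vangl2, 76.3% near Ccdc105, 34.7% near Wdpcp, which runs through a pyrimidine-rich dinucleotide repeat, and 7.67% near Shc3. The next 2 are among the 3 regions of highest fold of all, and neither has an AP1 motif in this window.
Map3k1, chr13:111850243-111850542: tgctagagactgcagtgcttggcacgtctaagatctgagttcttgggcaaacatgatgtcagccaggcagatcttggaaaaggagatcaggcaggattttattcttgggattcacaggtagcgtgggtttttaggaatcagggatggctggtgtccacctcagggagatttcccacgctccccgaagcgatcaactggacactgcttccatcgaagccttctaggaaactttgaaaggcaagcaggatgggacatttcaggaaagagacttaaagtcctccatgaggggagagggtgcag
Lce1m, chr3:93033914-93034213: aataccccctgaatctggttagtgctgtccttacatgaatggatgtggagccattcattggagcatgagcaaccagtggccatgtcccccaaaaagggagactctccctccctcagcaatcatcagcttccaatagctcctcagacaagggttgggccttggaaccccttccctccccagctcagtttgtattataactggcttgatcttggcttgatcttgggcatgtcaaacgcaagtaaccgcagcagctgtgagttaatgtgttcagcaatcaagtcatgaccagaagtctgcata
The window of a narrow domain can reach past its ends, since the narrowest domain had 235 bp.

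The 8186 domains were modest in strength and narrow. Their median fold enrichment over background was 3.50 in the ΔTA list (5th to 95th percentile 2.52 to 5.57, highest 12.2), against 3.54 over all ΔTA domains, and their median width was 611 bp against 879 bp. By the caller's score the median member stood above 33.3% of the ΔTA list and above 24.5% of the ΔHMG list. A q-value of at most 0.001 was reached by 54.9% of members and by 68.4% of all ΔTA domains. Together they covered 6.17 Mb.

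In the ΔHMG list 8208 domains lay over them. The highest ΔHMG fold over a member had a median of 3.40, and the fold was higher in ΔTA at 4537 of the 8186 (55.4%). Across members the 2 folds rose together (Spearman's rho 0.48, Pearson's r of log2 fold 0.53). The points come from the same 2 libraries and share base composition, so that this is a description only. At 5804 members (70.9%) ΔHMG domains covered over 50% of the bases, and at 1155 they covered all of them. Applied the other way round, with ΔHMG domains as the starting list, the same rule took 8313 of 116326.

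**Figure D1:**
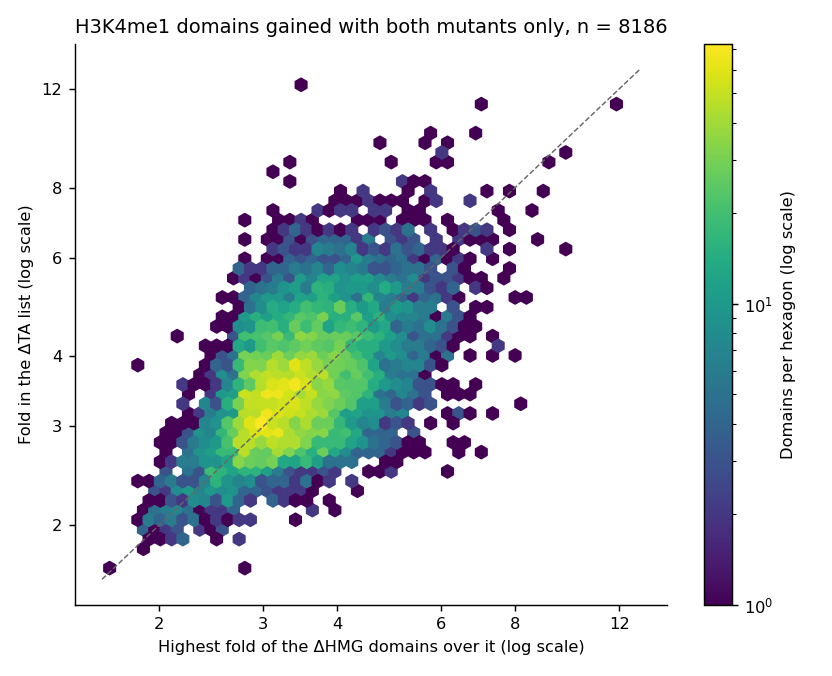
Fold enrichment of the 8186 domains in the ΔTA list (vertical axis) against the highest fold of the ΔHMG domains over each (horizontal axis), both on log scales, with colour giving the number of domains per hexagon and a dashed line of equal fold. The middle 90% of ΔTA folds lies between 2.52 and 5.57, and a few of the highest, such as that at a ΔTA fold of 12.2, lie far from it.

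The edge of the 1 bp rule held few regions. The smallest gap between a member and a WT domain was 1 bp, and 6 members lay within 10 bp of one, with a median fold of 2.58. On the other side, 11 domains that were called with ΔHMG and shared 3 to 10 bp with WT domains had a median fold of 2.86. At the other edge, 11 members shared 10 bp or less with a ΔHMG domain. The median gap to the nearest WT domain was 4557 bp. Only 602 members (7.35%) lay within 1000 bp of one, and 2214 lay over 10000 bp from any. Median fold was 3.04 in the former and 3.77 in the latter, so that the most isolated members were not the weakest.

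The rule rests on calls that go together across the ΔTA list. Of all ΔTA domains, 78.3% were also called with ΔHMG. The share was 95.7% (95.6 to 95.9%) of those in both WT lists, 56.2% (55.1 to 57.4%) of those absent without DOX and present with WT, and 33.1% (32.5 to 33.7%) of the 24722 absent from both WT lists. In all, 25.8% of ΔTA domains were absent without DOX. For comparison, 4019 of these were called with all 3 variants, and 16536 with ΔTA only. Another set, of 13146 domains, was called without DOX and with both mutants and was missing with WT only. It shares with the members their absence after WT induction and differs from them in the list without DOX.

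Members lay mostly away from promoters. Their median distance to a start site was 14606 bp, and 86.4% (85.6 to 87.1%) were distal, that is over 2500 bp from one. Over all ΔTA domains 77.0% were distal. The share was 81.3% (80.1 to 82.5%) of the domains gained with all 3 variants, 88.2% (87.7 to 88.7%) of those gained with ΔTA only and 85.7% (85.0 to 86.2%) of those missing with WT only. The centre of 53.8% of members fell in an intron, of 40.3% between genes and of 5.91% in an exon. A start site lay inside 176 members (2.15%), against 6.10% of all ΔTA domains. Along the genome, members made up between 6.01% (chromosome 11) and 7.43% (chromosome X) of the ΔTA domains on each of the 20 chromosomes that had any.

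In skin, where the same mark was followed in sorted EpdSCs of *Krt14-rtTA;TRE-Sox9* mice from D0, before induction, to 12 weeks of DOX (W1, W2, W6 and W12, the last from grafts), most members had no H3K4me1 domain. A domain at D0 overlapped 28.7% (27.7 to 29.7%) of members, against 58.6% of all ΔTA domains. The share fell to 19.6% at W1 and was 21.7% at W2, 23.4% at W6 and 24.6% at W12, so that D0 gave the highest value and W1 the lowest. Over all ΔTA domains D0 also gave the highest value and W1, with 51.3%, the lowest. The skin lists differ in length in the same direction, with 87287 domains at D0 and 69439 at W1. At one or more time points 39.9% of members (38.8 to 41.0%) were covered, 11.0% at all 5, 4.23% at D0 only and 11.2% only after D0. Of all ΔTA domains 70.1% were covered, 40.9% at all 5, 2.85% at D0 only and 11.5% only after D0.

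The domains gained with all 3 variants had higher shares at every time point, without overlap of the intervals. They overlapped skin H3K4me1 at 44.8% (43.2 to 46.3%) at D0 and at 62.3% over all time points, with no drop of like size at W1 (40.9%) and 45.3% at W6. Of them 9.98% lay in W2 domains and not in D0 domains, against 5.30% of members and 5.55% of all ΔTA domains. The domains missing with WT only began at 43.1% at D0 and went down to 31.5% at W1, as members did from a lower level. Those gained with ΔTA only were the nearest to members, at 23.9% at D0.

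Skin H3K27ac was rare over members. A peak at any time point overlapped 442 of them, 5.40% (4.92 to 5.91%), against 25.7% of all ΔTA domains and 14.8% (13.7 to 15.9%) of the domains gained with all 3 variants. By time point the share of members ran from 1.50% at W6 to 2.25% at W12. Over all ΔTA domains W6 gave the highest value, 14.1%, and W12 the lowest, 11.4%. The W12 list was the longest of the H3K27ac lists, with 33985 peaks against 30516 at W6. Only 56 members (0.684%) lay on a W2 peak that D0 lacked. The share was 4.96% of all ΔTA domains, 3.33% of gains with all 3 variants and 0.774% of gains with ΔTA only.

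**Figure D2:**
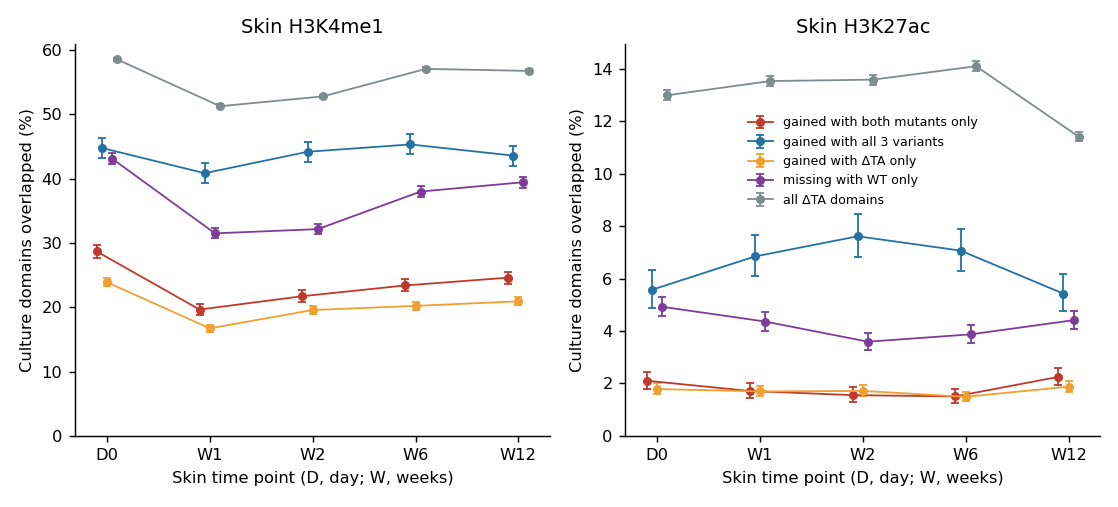
Share of culture domains (vertical axis, %) that overlapped a skin H3K4me1 domain (left) or H3K27ac peak (right) at each time point (horizontal axis), with exact 95% intervals, for members (red) and 4 other sets of ΔTA domains. Members lie between 19.6% and 28.7% for H3K4me1 and between 1.50% and 2.25% for H3K27ac, below the domains gained with all 3 variants at every time point.

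Of the motifs searched, AP1 showed the widest gap in percentage points between members and the gains shared with WT. It stood in the central 300 bp of 1462 members, 17.9% (17.0 to 18.7%), against 14.7% over all ΔTA domains, 13.5% (12.5 to 14.6%) of the domains gained with all 3 variants and 13.4% of the domains in all 4 lists. The domains missing with WT only had 18.4% (17.7 to 19.1%) and those gained with ΔTA only 16.7% (16.1 to 17.3%). The 23939 domains of the WT list that no other list shared had 6.50% (6.19 to 6.82%). In this central window AP1 was least frequent where WT SOX9 alone had a domain and most frequent where WT SOX9 with DOX had none. The order turned when whole domains, which differ in width, were searched. Members then had 32.4% (31.4 to 33.5%), below all ΔTA domains (35.1%), the domains missing with WT only (38.2%) and the domains in all 4 lists (39.1%), and above gains with all 3 variants (26.9%) and with ΔTA only (25.9%).

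The SOX motif went the other way. AACAATG was found in 4.47% (4.03 to 4.94%) of members, close to the 4.58% of all ΔTA domains, against 6.10% (5.38 to 6.88%) of those gained with all 3 variants and 9.81% (9.43 to 10.2%) of those in the WT list alone. The variant AACAAAG gave 6.99% for members, 8.86% for gains with all 3 variants and 13.6% for the WT list alone.

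Seen along the sequence, AP1 motifs were gathered at the centre of the domains. Within 100 bp of the centre members had 0.691 motifs per kb, and between 750 and 1000 bp from it 0.171 per kb, a ratio of 4.05. The ratio was 2.77 for gains with all 3 variants, 3.73 for the domains missing with WT only, 3.81 for gains with ΔTA only and 2.70 over all ΔTA domains. Away from the centre the density of members and of gains with all 3 variants was nearly equal (0.171 and 0.177 per kb). Over whole domains members had 0.518 motifs per kb and all ΔTA domains 0.424. Gains with ΔTA only had 0.520, domains missing with WT only 0.528 and gains with all 3 variants 0.414, so that the density in members was not particular to them.

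**Figure D3:**
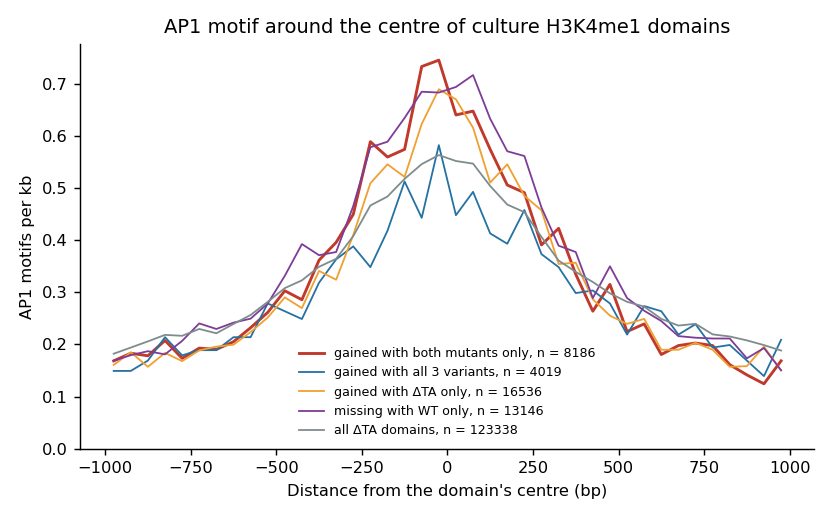
AP1 motifs per kb (vertical axis) in 50 bp steps of distance from the domain's centre (horizontal axis, bp) for members (thick red line) and 4 other sets of ΔTA domains. All sets peak at the centre, members at 0.691 and the domains missing with WT only at 0.695 per kb within 100 bp, gains with all 3 variants at 0.491.

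The difference in AP1 between members and gains with all 3 variants was also seen within classes of width. Among domains under 500 bp the share with AP1 was 16.4% (15.1 to 17.7%) of members and 13.2% (11.6 to 14.9%) of gains with all 3 variants. From 500 to 1000 bp it was 21.4% (19.9 to 23.0%) and 15.4% (13.4 to 17.4%), and from 1000 bp up 15.1% (13.6 to 16.8%) and 11.7% (9.85 to 13.8%), where the intervals overlap. In the same order of width, the domains missing with WT only had 17.0%, 21.6% and 16.1%. Gains with ΔTA only had 16.4%, 18.9% and 12.7%, and all ΔTA domains 13.9%, 17.2% and 13.5%. The level in members was thus not particular to them. By position, distal members had 18.2% and distal gains with all 3 variants 14.3%, and those within 2500 bp of a start site 15.8% and 9.99%. Members with no skin H3K4me1 had AP1 in 19.6% (18.5 to 20.8%), and those with it at any time point in 15.2% (14.0 to 16.5%). The same split was seen over all ΔTA domains, with 18.6% (18.2 to 19.0%) and 13.04% (12.8 to 13.3%), so that without skin H3K4me1 the intervals of members and of all ΔTA domains overlap. The median GC share was close, at 47.0% in members and 46.3% in gains with all 3 variants.

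AP1 became more frequent, and skin H3K4me1 less so, as fold rose. From the lowest to the highest quartile group of members by ΔTA fold, AP1 was found in 13.2%, 16.0%, 20.7% and 21.4%. Skin H3K4me1 at D0 was found over 41.8%, 28.5%, 24.6% and 19.8% in the same order. Both trends were also present over all ΔTA domains, AP1 from 11.4% to 18.9% and skin H3K4me1 from 64.8% to 54.0%. They are not particular to members. Of the 100 members of highest fold, 24 had AP1 and 10 overlapped a skin domain at D0, but none of the highest 10 had AP1 in the central window.

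**Figure D4:**
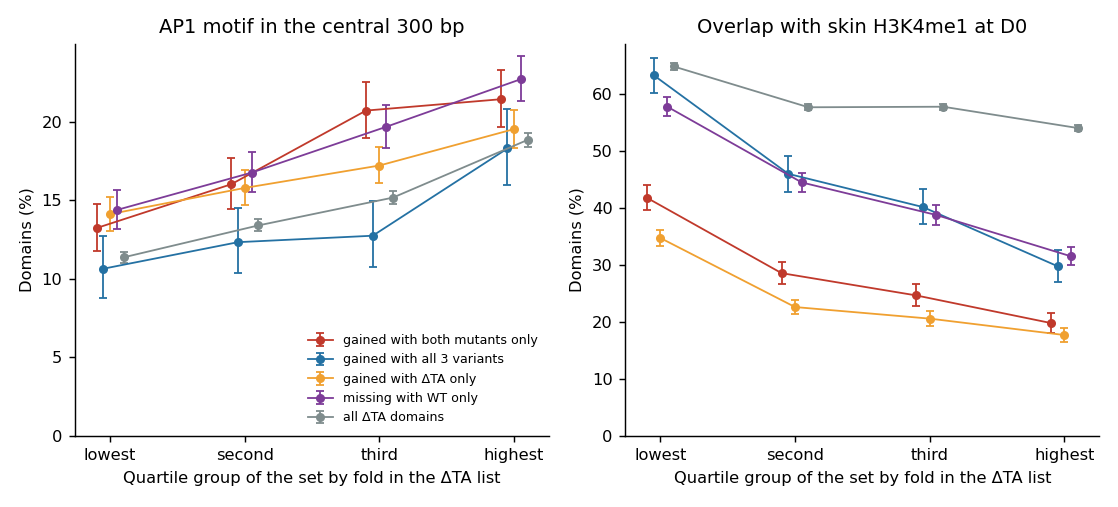
Share of domains (vertical axes, %) with an AP1 motif in the central 300 bp (left) and with skin H3K4me1 at D0 (right) by quartile group of fold in the ΔTA list (horizontal axis), each set cut at its own quartiles, with exact 95% intervals. AP1 in members (red) goes from 13.2% to 21.4% and skin overlap from 41.8% to 19.8%, and the other sets run in the same directions.

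The remaining motifs differed by fewer percentage points than AP1, though for ETS, the NRF2 type and SP the intervals of members and all ΔTA domains did not overlap. ETS (AGGAAGT) stood in 10.1% (9.41 to 10.7%) of members, 8.04% of gains with all 3 variants and 9.13% of all ΔTA domains. The NRF2 type (TGACNNNGC) stood in 13.6% against 11.3% and 12.2%, and 275 of the 1111 members with it also had AP1. In 139 members the NRF2-type site was TGACTCAGC, which contains the AP1 motif, so that the same bases count for both. The motif AGATAAG, bound by GATA factors, gave 4.37% of members and 4.22% of all ΔTA domains, RUNX (TGTGGTT) 7.56% and 7.29%, TEAD (ACATTCC) 5.94% and 6.17%, KLF (GGGTGTG) 8.80% and 8.94%, and CEBP (TTGCNNAA) 12.2% in both. SP (GGGCGGG), a motif of promoters rich in GC, was found in 2.43% (2.11 to 2.79%) of members against 3.85% (3.74 to 3.96%). GRHL (AACCNGTT) gave 2.25% and 2.58%, the E-box CACGTG 4.15% and 4.40%, ATF4 (TGATGCAA) 0.794% and 0.92%, and CRE (TGACGTCA) 0.183% and 0.28%. The longer motifs of CTCF, NF-κB, HSF and the p53 family, to which the epidermal factor p63 belongs, were found in few domains. Members had 1.55%, 1.36%, 0.696% and 1.53%, and all ΔTA domains 1.79%, 1.49%, 0.634% and 1.64%. All motifs were searched on both strands, and a match is not a bound site.

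**Figure D5:**
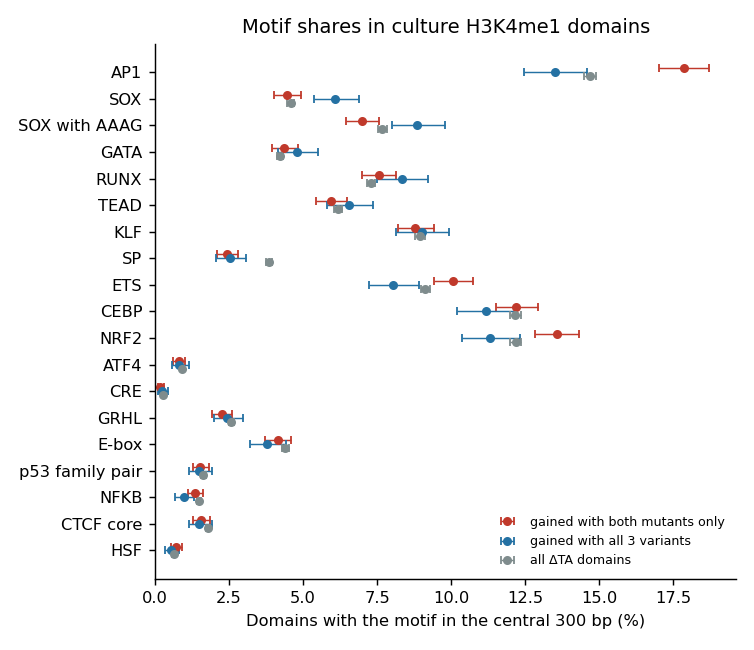
Share of domains with each of 19 motifs in the central 300 bp (horizontal axis, %) for members (red), gains with all 3 variants (blue) and all ΔTA domains (grey), with exact 95% intervals. AP1 at 17.9% in members against 13.5% and 14.7% is the widest gap in percentage points, and both SOX motifs are lower in members than in gains with all 3 variants.

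The 10 members of highest fold were narrow, between 246 and 595 bp, and 9 were distal. The highest, at 12.2 in ΔTA and 3.52 in ΔHMG, was chr13:111850209-111850576 near Map3k1, which encodes a kinase upstream of JNK, and it overlapped skin H3K4me1 at W2. The third was chr3:93033827-93034300, between genes and near Lce1m, one of the late cornified envelope genes of the differentiating epidermis, with 11.3 in ΔTA, 6.91 in ΔHMG and skin H3K4me1 at W12 only.

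Next came chr1:173622457-173622867 near Ifi209, an interferon-inducible gene (10.1 and 6.75), and introns near Anks1b (9.88 and 5.72) and Tor1aip2 (9.56 and 6.22). The Anks1b region lay 210524 bp from a start site of that gene. The regions nearest to Rgs17, a regulator of G-protein signalling, and Nmbr, the neuromedin B receptor, lay between genes, with folds of 9.56 and 4.75 and of 9.38 and 9.74. They lay 46255 bp from the start of Rgs17 and 1066067 bp from that of Nmbr. The region near Armc4 had 9.10 and 5.97. That near Mcm9, a DNA helicase, had 9.56 and 5.65 and was the only one with skin H3K4me1 at all 5 time points and with H3K27ac, at D0, W2 and W6. Of the 10, 6 had no skin H3K4me1 at any time point.

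The 4 AP1 regions shown above had folds between 5.75 and 6.74 in ΔTA. That near Wdpcp (chr11:21713357-21713772, an intron) had 6.74 in ΔTA and 6.95 in ΔHMG, and skin H3K4me1 at D0, W2 and W6. Those near Ccdc105 (6.06 and 4.08), Shc3 (5.97 and 4.26) and Vangl2, a planar cell polarity gene of the hair follicle (5.75 and 3.22), were each higher in ΔTA. None of the 4 carried skin H3K27ac. In all, 323 members had AP1 together with skin H3K4me1 at D0.

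Of the 56 members on H3K27ac that skin gained at W2, the 5 of highest fold lay near Capn13 (5.57 in ΔTA and 3.86 in ΔHMG), Nfic, a nuclear factor I gene (5.42 and 3.82), Atp1b3, a subunit of the sodium pump (5.31 and 3.97), Slc7a14 (5.26 and 3.18) and Arhgap24 (4.65 and 3.13). The first lay 107882 bp from the start of Capn13. None of the 5 had AP1 in the central window. Acetylation was present at W2 alone near Capn13, Nfic and Slc7a14, and also at W1 near Atp1b3 and at W6 near Arhgap24.

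Members were spread over many genes. They were nearest to 5435 protein coding genes, of the 17824 that were nearest to any ΔTA domain, and 3762 of these had 1 member. The 5 genes with the most were Erc2 and Zeb2 with 9 each, and Cdh18, Myo16 and Tgfbr2 with 8 each. They had 39 (Erc2), 73 (Zeb2), 43 (Cdh18), 39 (Myo16) and 65 (Tgfbr2) ΔTA domains in all.

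Zeb2 encodes a repressor that drives epithelial-to-mesenchymal transition. Its 9 members lay between 12297 and 992350 bp from the start sites of Zeb2 itself (1887 to 222303 bp from those of any gene) and had ΔTA folds from 3.48 to 7.28, the highest, chr2:45049155-45049497, in an intron with skin H3K4me1 at D0, W6 and W12. At 7 of the 9 there was no skin domain, and 2 had AP1 in the central window. Tgfbr2, a receptor of TGFβ, a growth inhibitor of keratinocytes, had 8 members with folds from 2.37 to 5.12. Skin H3K4me1 covered 5 of these, the one nearest to its start, at 4340 bp, at all 5 time points. None of the 8 had AP1 in the central window. The 9 members at Erc2, a scaffold protein of the synapse, were all intronic and had folds from 2.80 to 5.74, with 2 in skin domains. None of the 8 nearest to the cadherin gene Cdh18, 79967 to 987677 bp from its start sites, had skin H3K4me1. The 8 at Myo16, an unconventional myosin, were intronic with folds from 2.78 to 5.61.

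For 7 gene lists of the epidermis and its responses, the share of members among the ΔTA domains nearest to the listed genes was read against the 6.64% of the whole list. It was 7.44% (37 of 497, 5.30 to 10.1%) for the genes of epithelial-to-mesenchymal transition, where 10 of 20 genes had a member. For hair follicle stem cell genes it was 4.99% (35 of 701, 3.50 to 6.88%), and 19 of 30 had a member. It was 3.37% (19 of 564, 2.04 to 5.21%) for epidermal identity genes with 10 of 30. The AP1 family had 3.37% (7 of 208, 1.36 to 6.81%) with 5 of 15 genes. Cytokines and chemokines had 3.17% (7 of 221, 1.28 to 6.42%) with 7 of 25. The lowest were genes of stress and wound response with 2.24% (6 of 268, 0.826 to 4.81%, 4 of 36 genes) and of YAP and TEAD with 1.53% (4 of 261, 0.419 to 3.88%, 3 of 15 genes). The intervals for epithelial-to-mesenchymal transition, hair follicle stem cell and AP1 family genes include 6.64%. Of the 17824 genes nearest to any ΔTA domain, 5435 were nearest to a member. Domains near one gene are not independent, and the lists were not tested.

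Among epidermal identity genes, Trp63, which encodes the master regulator p63, had 3 members of 48 domains, with folds from 2.84 to 3.44. The one in its intron, chr16:25867989-25868261, had AP1, skin H3K4me1 at all 5 time points and H3K27ac at W2. Klf4, a factor of the epidermal barrier, had 3 of 58 domains, with folds from 3.38 to 6.27, the nearest 345795 bp away. Tfap2c had 3 of 30 domains, Notch2 3 of 21 and Gata3 2 of 70, the nearer 919115 bp from its start. Klf5, Tfap2a, Ovol2, Lama3 and Cdh1 had 1 each. Krt5, the keratin of basal cells, had none among its 4 domains.

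Among hair follicle genes, Sox9 itself had 4 members of 124 domains, with folds from 2.50 to 3.85, none with AP1 in the central window. Shh, the ligand that drives follicle growth, had 4 of 21 domains, with folds from 3.40 to 4.46. All 4 had skin H3K4me1, and 2 of them had AP1 in that window. Runx2 had 3 of 41 domains, Fgf18 3 of 8 and Bmp2 3 of 29. Bmp4, a signal that keeps stem cells at rest, had 1 of 11, with a fold of 5.15, at 3179 bp from its start. The factor Runx1 had 1 of 63, with a fold of 4.31 in ΔTA and 3.98 in ΔHMG, 15411 bp from its start and in a skin domain at W12 only. Tcf7l2, Nfatc1, Nfib and Gli3 had 2 each, and Lhx2, Foxc1, Gli2, Cd34, Wnt7b, Bmp6 and Krt24 were among those with 1 each.

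In the other lists, Cdh2 (N-cadherin) had 6 members of 66 domains, with folds from 2.51 to 7.72 and none in a skin domain. These lay 14638 to 1500284 bp from its start sites. Twist2 had 4 of 27 domains, the nearest 117570 bp away, and Zeb1 3 of 21. Prrx1 had 2 of 10, Thbs1 2 of 53, and Fn1, Tgfbr1 and Tnc 1 each. Vim, the intermediate filament of mesenchymal cells, had none among its 2 domains. Of the AP1 genes, Fos had 2, with folds of 2.55 and 3.32, Maf 2, and Jun, Batf2 and Batf3 1 each. Of the stress genes, Gadd45g had 3 of 43 domains and Txnrd1, Gadd45a and Areg 1 each. Il6, Il24, Il33, Ccl5, Ccl20, Csf1 and Tgfb2 had 1 each, as had Wwtr1 and Ankrd1, while Tead1 had 2. Ctnnb1, which encodes β-catenin, had 3 of 39 domains of which the strongest had a fold of 3.84 in ΔTA and 5.76 in ΔHMG.

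The 4 culture lists were alike in size, with 110589 domains for WT without DOX, 116042 for WT, 116326 for ΔHMG and 123338 for ΔTA, and in median fold, which ran from 3.51 to 3.63. A domain lay within 2500 bp of a start site of all 10 keratinocyte markers in both WT lists and of 9 in both mutant lists, where Itga6 lacked one. The same held for 7 or 8 of 10 fibroblast, 7 or 8 of 10 melanocyte, 7 or 8 of 10 endothelial and 4 to 7 of 10 immune cell markers, and no list had one at Dcn, Lum, Tyr, Ednrb, Emcn, Lyz2 or Ptprc. Domains of this mark near other cells' genes do not give their expression, and a part of other cells in the result was not tested.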

How the data were processed

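MINT-ChIP lists of 38 samples in 16 groups were considered, of which the 4 culture lists of H3K4me1 and 10 skin lists were used. The authors aligned reads to GRCm38/mm10 with Bowtie2 (2.2.9 in the submitters' processing notes), removed duplicates with Picard, merged replicates with SAMtools (1.9) and called intervals with MACS2 (2.1.1) or epic2. The deposited culture lists have the layout of MACS2 broad peaks, although epic2 is named for H3K4me1, so that their caller is unclear. For each interval the deposited culture and H3K27ac lists give a score, a fold enrichment (a ratio to background) and −log10 values of p and q. The deposited skin H3K4me1 lists give a p-value, which was not used beyond the call. Total H3 and the barcode tables were not used. The condition of each culture list was read from its name.

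Depth per condition is not given in the sources used here. Only the number of called domains (110589 to 123338 in culture) could be given, and it does not measure depth. Intervals on 21 chromosomes were used, and 2 mitochondrial ΔTA domains were set aside. Overlap meant 1 bp. Distances were taken to start sites of 55413 genes of GENCODE M21, and the nearest gene was the nearest protein coding one. Sequence came from the RefSeq copy of GRCm38. Shares carry exact Clopper-Pearson intervals (SciPy 1.17.1). No test was made, because each condition has 1 pooled list. The functions were tested on simulated data.

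The members, the gene lists and the rule for named regions were chosen with earlier results of these data known. Some items that the rule takes in are not reported here. The rule named the 10 members of highest ΔTA fold, the 5 highest with AP1 and skin H3K4me1 at D0, the 5 highest on H3K27ac new at W2, the 5 genes nearest to most members, listed genes with a member, and a fixed set of genes (Sox9, Vim, Krt5, Trp63, Ctnnb1, Gata3, Runx1). Comparison sets, quartile groups of fold and classes of width were added after seeing the data. The alternatives tried were a 50% overlap, joined domains, a stricter q, a gap of 1000 bp to WT domains, lists of equal length, no sex chromosomes, and other limits for distal, skin overlap and motif windows.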

Additional observations from a re-analysis of the deposited data

How the results depend on the processing

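No paired analysis was possible because every value comes from pooled lists without a test. Of 43 values under the alternatives, 30 stayed within 1.5 times (the count) or within the 95% interval (medians and shares) of the reported value, and 13 did not. The number of members ran from 6518 with lists of equal length to 8583 with an overlap of 50% of the shorter domain. That overlap gave 30.8% of members in skin H3K4me1 at D0 and 6.61% with skin H3K27ac. Median fold was 3.53 with a q of at most 0.05, 3.54 over 1000 bp from every WT domain, where skin H3K4me1 at D0 was 27.1%, and 3.68 with lists of equal length, where AP1 was 18.9%. With distal set at 1000 bp or 10000 bp the share of distal members was 92.9% or 60.6%. A skin overlap of 50% gave 26.9% at D0 and 4.25% for H3K27ac. AP1 was found in 39.6% of members in 1000 bp and in 32.4% over the whole domain, where members fell below all ΔTA domains (35.1%), the reverse of the central window.

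Against gains with all 3 variants, members were higher in AP1 in 9 of 9 settings, by 4.13 to 7.33 percentage points, and lower in skin H3K4me1 at D0 in 6 of 6, by 15.7 to 18.5 points. Against the domains missing with WT only, AP1 was lower in 8 of 9 settings and higher, by 0.41 points, with lists of equal length. One list per condition and unknown depth limit every comparison, and H3K4me1 below the calling threshold of the WT lists was not measured.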

Other observations

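Of the 8186 members, 905 (11.1%) lay within 10000 bp of another member, and there were 41 runs of 3 or more spaced no wider than that. The longest run held 5 members over chr17:73574536-73598532, nearest to Galnt14, with ΔTA folds from 2.86 to 4.24. By steps of 1 Mb, the most members in any step were 17, on chromosome 15 from 84000001 to 85000000 and on chromosome 2 from 157000001 to 158000000. These counts were not set beside those of all ΔTA domains, so that they do not show whether members are scattered or gathered.

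Taken from the ΔHMG list, the same rule gave domains with like features. Of these 8313 domains, 18.3% (17.5 to 19.1%) had AP1 in the 300 bp around the ΔHMG centre, 4.03% had the SOX motif AACAATG, 28.5% overlapped skin H3K4me1 at D0 and 86.7% were distal. Both sets describe mostly the same loci and are not independent.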
